A study of Mus musculus with 4 samples.

Results

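The 40 genes described here make up a broad type I interferon response: transcription factors, RNA sensors, antiviral effectors and regulators that interferon induces in most mouse cells. They were taken as the rows of 40 listed symbols in the gene table, and all 40 were found among its 32285 gene rows. Their levels were read in T cells sorted live from tumour-draining lymph nodes of mice. The tumours were MC38-OVA, colon carcinoma cells of mouse origin made to carry ovalbumin. A droplet kit that reads the 5' end of transcripts gave 4 single-cell libraries. KO-DOX came from PD-L1 knockout mice given doxorubicin, an anthracycline that damages DNA, and KO-CTRL from PD-L1 knockout mice with the control treatment. WT-DOX came from mice labelled as control genotype given doxorubicin, and WT-CTRL from the same genotype with the control treatment. The knockout of Cd274, the gene of PD-L1, was conditional to dendritic cells, so T cells cannot check it, and they held 82.3, 84.0, 65.0 and 66.96 CPM (UMIs of a gene per 1000000 UMIs of the same cells) of Cd274 in KO-DOX, KO-CTRL, WT-DOX and WT-CTRL. The deleting transgene, the doxorubicin dose and time, the age of the mice and how many were pooled per library were not stated in the labels.

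Type I interferons bind the receptor IFNAR, whose kinases JAK1 and TYK2 phosphorylate STAT proteins. STAT2 and IRF9 are parts of the complex ISGF3, which binds interferon-stimulated response elements in promoters and turns on genes such as those described here. T cells in lymph nodes also keep a low tonic level of many of these genes without infection, and a small fraction of them shows a strong response.

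Promoters of the 40 genes were read for the letters of that element. RefSeq gave a window of 250 bases before to 50 after the start for 33 of the 40 genes in build GRCm38.p6. The core letters, GAAA and GAAA with any 2 bases between them, were searched on both strands. They stood in the windows of 17 of the 33 genes (51.5%) and of 1079 of 27025 genes in all (3.99%). The core letters followed by CT stood in 8 of the 33 (24.2%) and in 0.303% of all genes. A variant of GAAA, any base and TGAAAC, which also contains the core letters, stood in 2 of the 33 (6.06%) and in 0.233% of all genes.

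The 150 bases before the start are shown for 6 genes that the comparisons of cell sets below turn on: Oas1a and Oasl2, related genes with and without the core letters, and 4 genes of the PYHIN family of DNA-binding proteins. Matches to the core letters are in capitals, and each sequence runs 5′ to 3′ on the strand of its gene. In GRCm38.p6, Oas1a is at chr5:120907526-120907675 (minus strand), Ifi206 at chr1:173491319-173491468 (minus), Ifi208 at chr1:173673515-173673664 (plus) and Ifi213 at chr1:173599273-173599422 (minus). Ifi209 is at chr1:173630709-173630858 (plus) and Oasl2 at chr5:114896784-114896933 (plus).
Oas1a: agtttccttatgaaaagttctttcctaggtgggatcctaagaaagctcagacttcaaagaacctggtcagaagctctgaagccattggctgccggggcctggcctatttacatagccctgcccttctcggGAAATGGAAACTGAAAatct
Ifi206: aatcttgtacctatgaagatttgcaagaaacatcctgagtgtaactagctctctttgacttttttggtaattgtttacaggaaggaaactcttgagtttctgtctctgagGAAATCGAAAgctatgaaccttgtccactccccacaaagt
Ifi208: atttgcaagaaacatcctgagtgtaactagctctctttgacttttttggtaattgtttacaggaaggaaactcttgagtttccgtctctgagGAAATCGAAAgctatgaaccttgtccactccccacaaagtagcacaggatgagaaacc
Ifi213: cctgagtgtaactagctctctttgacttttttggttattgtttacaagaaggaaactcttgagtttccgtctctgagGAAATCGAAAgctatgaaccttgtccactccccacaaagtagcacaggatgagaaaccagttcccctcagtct
Ifi209: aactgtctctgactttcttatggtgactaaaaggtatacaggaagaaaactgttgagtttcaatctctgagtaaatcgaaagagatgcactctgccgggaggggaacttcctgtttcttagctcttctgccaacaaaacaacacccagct
Oasl2: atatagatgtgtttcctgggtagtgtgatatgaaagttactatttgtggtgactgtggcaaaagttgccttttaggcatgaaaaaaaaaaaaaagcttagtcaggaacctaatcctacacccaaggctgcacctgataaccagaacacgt

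In Oas1a a pair of overlapping matches formed a single run close to the start. Ifi206, Ifi208 and Ifi213 carried one identical match, which Ifi203 carried too, and neither Ifi209 nor Oasl2 had a match in its window. A match of letters is a description and does not show that a factor binds there.

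Each library is the only one of its group, so no test between groups exists and each interval below covers counting error only. The T cells kept numbered 9920 in KO-DOX, 12437 in KO-CTRL, 11918 in WT-DOX and 12227 in WT-CTRL, with a median of 3046 to 3124 UMIs (unique molecular identifiers, 1 per counted transcript) per cell. Levels below are CPM, which are not scaled for transcript length, so they are compared between cells and not between genes. Marker sums for B cells were 7.28 to 9.74 CPM in these cells and those for macrophages 0.197 to 0.356 CPM. Each pair of libraries shared 175 to 271 barcodes, and leaving these cells out moved no count over all T cells by more than 1.5 times.

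The 40 genes together held 3910 CPM in KO-DOX (95% Poisson interval 3889 to 3930), 4359 CPM in KO-CTRL (4340 to 4378), 3486 CPM in WT-DOX (3468 to 3504) and 3911 CPM in WT-CTRL (3893 to 3929). KO-CTRL was highest and WT-DOX lowest, while KO-DOX and WT-CTRL lay within each other's counting error. Differences were described by the log2 fold of CPM plus 1, and a gene was counted when it passed 0.32 on that scale. Only genes with a mean of at least 5 CPM and at least 100 UMIs were counted: 39 of the 40 met this in all T cells, and Oas2 missed it.

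KO-CTRL against WT-CTRL gave a median log2 fold of 0.25 over the 39 genes, against 0.00038 over all genes tested. Of the 39, 15 were higher by more than 0.32, where 1.46% of all genes were. KO-DOX against WT-DOX gave a median of 0.18, with 11 genes higher against 4.45% of all genes, and a median over all genes of 0.025. KO-DOX against KO-CTRL gave a median of -0.22, with 38 of 39 folds below 0 and 7 genes lower by more than 0.32, where 0.897% of all genes were. WT-DOX against WT-CTRL gave -0.16, with 34 of 39 folds below 0 and 5 genes lower by more than 0.32, where 3.58% of all genes were. Epsti1 was above 0 in both. The share of all genes with a fold below 0 was not counted. Of 9029 genes tested, 323 were lower and 59 higher by more than 0.32 in WT-DOX against WT-CTRL. In KO-DOX against KO-CTRL 81 were lower and 68 higher. Every comparison shares a library with 2 of the others. The count of 11 in KO-DOX against WT-DOX was 6 with median-of-ratios scaling and 5 with the gates set to the same proportions. With every cell thinned to 1500 UMIs, the count of 7 was 11 and the count of 5 was 8.

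**Figure D1:**
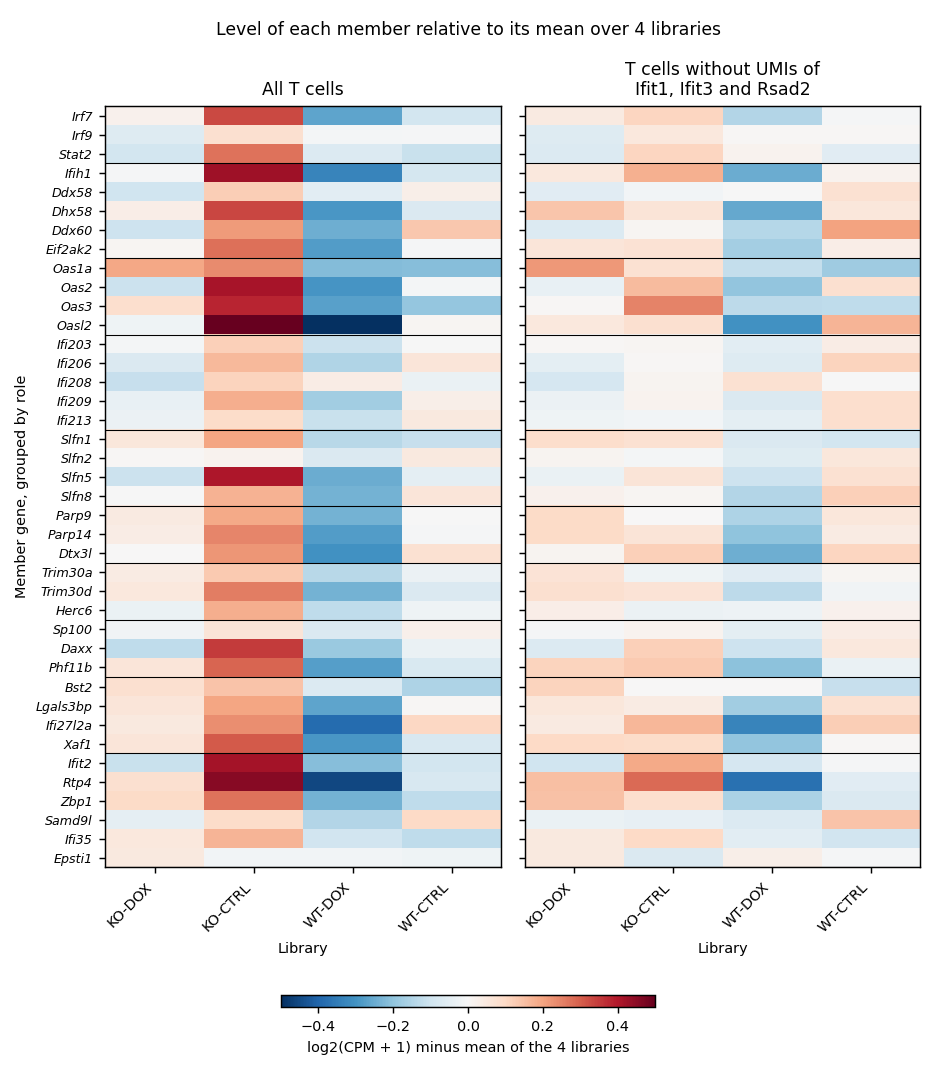
Level of each of the 40 genes in 4 libraries, as log2(CPM + 1) minus the mean of the 4 libraries (colour), for all T cells (left) and for T cells without UMIs of Ifit1, Ifit3 and Rsad2 (right), with lines between role groups. The KO-CTRL column is the darkest red on the left, as for Oasl2 with 14.2 CPM, and pales on the right, where Oasl2 held 6.92 CPM in KO-CTRL.

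Among the transcription factors, Irf7, which switches on interferon genes and many responders, stood at 73.8 CPM in KO-DOX, 91.7 in KO-CTRL, 60.4 in WT-DOX and 68.2 in WT-CTRL. Stat2, a subunit of ISGF3, stood at 43.2, 55.9, 44.0 and 42.6 CPM in the same libraries, so that KO-CTRL alone stood apart. Its log2 fold was 0.39 in KO-CTRL against WT-CTRL and -0.36 in KO-DOX against KO-CTRL. Irf9, the DNA-binding subunit, was nearly level, at 81.0 CPM in KO-DOX, 89.7 in KO-CTRL, 84.1 in WT-DOX and 84.4 in WT-CTRL.

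The sensors of foreign RNA were each highest in KO-CTRL. Ifih1 encodes MDA5, a sensor of long double-stranded RNA, and held 27.1 CPM in KO-DOX, 36.8 in KO-CTRL, 21.4 in WT-DOX and 25.5 in WT-CTRL. Its ratio of KO-CTRL to WT-CTRL had a counting interval of 1.34 to 1.56. Dhx58, whose product LGP2 tunes the other sensors, held 6.39, 8.11, 4.92 and 5.88 CPM in KO-DOX, KO-CTRL, WT-DOX and WT-CTRL. Ddx58, the gene of RIG-I, held 87.4 CPM in KO-DOX, 102 in KO-CTRL, 90.3 in WT-DOX and 95.8 in WT-CTRL. The log2 fold of Ddx58 was -0.23 in KO-DOX against KO-CTRL and -0.084 in WT-DOX against WT-CTRL. Ddx60, a related helicase, and Eif2ak2, the kinase PKR that stops translation on double-stranded RNA, were lowest in WT-DOX, as were Ifih1 and Dhx58. Ddx60 held 33.7 CPM in KO-DOX, 42.1 in KO-CTRL, 30.4 in WT-DOX and 39.8 in WT-CTRL. Eif2ak2 held 31.1, 37.7, 25.3 and 30.8 CPM in the same order of libraries.

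The oligoadenylate synthetase family makes the second messenger that activates RNase L. All 3 of its counted members were higher in both knockout comparisons. Oasl2, a synthetase-like member, held 9.39 CPM in KO-DOX, 14.2 in KO-CTRL, 6.39 in WT-DOX and 9.61 in WT-CTRL, and it was past 0.32 in all 4 comparisons. Oas3 held 7.02, 8.85, 5.27 and 5.61 CPM in those libraries, and its log2 fold of 0.58 in KO-CTRL against WT-CTRL was the highest of the 39. Oas1a held 10.3 CPM in KO-DOX, 10.6 in KO-CTRL, 7.48 in WT-DOX and 7.51 in WT-CTRL: the knockout libraries were higher, and the counting interval of the ratio included 1 in both doxorubicin comparisons. Oas2, below the limit on low values, held 4.43, 6.80, 3.78 and 4.82 CPM in KO-DOX, KO-CTRL, WT-DOX and WT-CTRL.

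The PYHIN genes, encoded side by side on chromosome 1, differed less. None of the 5 passed 0.32 in any comparison over all T cells. Ifi203 held 216 CPM in KO-DOX, 236 in KO-CTRL, 201 in WT-DOX and 217 in WT-CTRL. Ifi213 held 202, 219, 190 and 213 CPM there, Ifi206 held 107, 126, 101 and 117 CPM, and Ifi209 held 110, 128, 99.8 and 115 CPM. Ifi208 was the exception in order, with 80.8 CPM in KO-DOX, 94.6 in KO-CTRL, 89.9 in WT-DOX and 85.7 in WT-CTRL, so that KO-DOX was lowest. These genes are related, as are those of the Oas, Slfn and Trim30 families, and their sequence identity was not computed. How reads shared by related genes were counted is not given in the sources used here.

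Of the Schlafen genes, Slfn5 held 63.5 CPM in KO-DOX, 90.8 in KO-CTRL, 57.4 in WT-DOX and 66.2 in WT-CTRL, a log2 fold of 0.45 in KO-CTRL against WT-CTRL and of -0.51 in KO-DOX against KO-CTRL. Slfn2, which mouse T cells need to stay quiescent, held 296, 299, 281 and 305 CPM in KO-DOX, KO-CTRL, WT-DOX and WT-CTRL, with log2 folds between -0.12 and 0.08. Slfn1 held 197 CPM in KO-DOX, 218 in KO-CTRL, 172 in WT-DOX and 175 in WT-CTRL. Slfn8 held 70.1, 79.3, 59.4 and 73.3 CPM in the same libraries.

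Parp9 and its partner Dtx3l, a ubiquitin ligase, and Parp14, an ADP-ribosyltransferase, were all lowest in WT-DOX. Dtx3l held 49.95 CPM in KO-DOX, 58.3 in KO-CTRL, 40.2 in WT-DOX and 52.6 in WT-CTRL, and its log2 fold of -0.38 in WT-DOX against WT-CTRL passed the limit. Parp14 held 67.7, 78.2, 54.2 and 65.7 CPM and Parp9 held 57.1, 63.1, 46.8 and 55.1 CPM in those libraries. The ubiquitin ligase genes Trim30a, Trim30d and Herc6, the last the main ligase for ISG15 in mice, followed: Trim30a held 92.2 CPM in KO-DOX, 98.3 in KO-CTRL, 81.3 in WT-DOX and 87.8 in WT-CTRL. Herc6 held 54.8, 63.9, 51.3 and 55.3 CPM there, and Trim30d held 19.3, 22.4, 15.7 and 17.7 CPM.

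Among nuclear proteins, the histone chaperone gene Daxx stood apart in KO-CTRL alone, with 36.8 CPM in KO-DOX, 51.6 in KO-CTRL, 35.3 in WT-DOX and 39.3 in WT-CTRL. Sp100, a component of PML nuclear bodies, was nearly level at 362, 383, 348 and 373 CPM in the same libraries. Phf11b, which encodes a PHD finger protein, held 37.3 CPM in KO-DOX, 44.0 in KO-CTRL, 29.3 in WT-DOX and 33.9 in WT-CTRL.

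Ifi27l2a, which encodes a small membrane protein and held the most UMIs of the 40, stood apart in WT-DOX, where it was low. It held 550 CPM in KO-DOX, 625 in KO-CTRL, 407 in WT-DOX and 572 in WT-CTRL. The log2 fold was -0.49 in WT-DOX against WT-CTRL and -0.18 in KO-DOX against KO-CTRL. The difference of these folds, KO minus WT, was 0.31, with a counting interval of 0.27 to 0.35, the highest of the 39. Xaf1, whose product binds the apoptosis inhibitor XIAP, held 41.5 CPM in KO-DOX, 49.5 in KO-CTRL, 32.4 in WT-DOX and 37.6 in WT-CTRL. Bst2, the virus-tethering surface protein tetherin, held 142, 148, 128 and 120 CPM there, and the secreted glycoprotein gene Lgals3bp held 32.9, 36.3, 26.1 and 31.7 CPM.

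Of the remaining genes, Rtp4, a receptor chaperone of the Golgi, held 44.2 CPM in KO-DOX, 57.7 in KO-CTRL, 30.1 in WT-DOX and 39.5 in WT-CTRL, and was past 0.32 in all 4 comparisons. Its log2 fold under doxorubicin was -0.38 in both genotypes. Ifit2, an RNA-binding tetratricopeptide protein gene, held 21.6, 31.5, 20.03 and 21.9 CPM in the same libraries and stood apart in KO-CTRL. Zbp1, a sensor of Z-form nucleic acid that can start necroptosis, held 64.9 CPM in KO-DOX, 73.4 in KO-CTRL, 51.4 in WT-DOX and 55.5 in WT-CTRL. Samd9l, a growth-restraining antiviral gene, held 81.5, 89.8, 75.9 and 90.3 CPM, and Ifi35 held 62.9, 68.2, 56.6 and 55.4 CPM there. Epsti1 was level, at 335 CPM in KO-DOX, 321 in KO-CTRL, 321 in WT-DOX and 319 in WT-CTRL.

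The response to doxorubicin was set side by side in both genotypes. The KO log2 fold minus the WT log2 fold had a median of -0.032 over the 39 genes, below 0 for 24 and above 0 for 15. Its counting interval lay below 0 for 12 genes, led by Stat2 at -0.41 and Ifit2 at -0.40, and above 0 for 6, led by Ifi27l2a at 0.31 and Dtx3l at 0.16. The same counts were not made over all genes, so they do not set these genes apart from others. This difference was not tested against variation between mice.

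Genes upstream of the response were mostly level. Of 18 signalling genes, from the receptor chains Ifnar1 and Ifnar2 to the feedback inhibitors Socs1 and Usp18, the median log2 fold was 0.027 in KO-CTRL against WT-CTRL. Usp18 was past 0.32, at 37.0 CPM in KO-CTRL and 21.01 in WT-CTRL. In KO-DOX against KO-CTRL the median was -0.025 and Usp18 was the single gene lower by that size, at 22.7 CPM in KO-DOX and 37.0 in KO-CTRL. Socs1 held 99.99 CPM in WT-DOX and 75.8 in WT-CTRL, a log2 fold of 0.39. Ifnar1 held 72.7 CPM in KO-DOX, 72.0 in KO-CTRL, 74.8 in WT-DOX and 75.3 in WT-CTRL. In contrast, all 8 of a list of strongly inducible genes (Ifit1, Ifit3, Ifit3b, Ifit1bl1, Rsad2, Isg15, Cmpk2 and Isg20) were past 0.32 in KO-CTRL against WT-CTRL, with a median of 0.99, and all 8 were lower in KO-DOX against KO-CTRL, with a median of -0.98. The median of the same list was 0.35 in KO-DOX against WT-DOX and -0.22 in WT-DOX against WT-CTRL.

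To separate a tonic level from a strong response, T cells were divided by UMIs of Ifit1, Ifit3 or Rsad2, genes of the same response that are strongly induced and lie outside the 40. Cells with at least 1 such UMI made up 8.23% of T cells in KO-DOX (Clopper-Pearson 95% interval 7.69 to 8.78), 12.6% in KO-CTRL (12.04 to 13.2), 5.97% in WT-DOX (5.55 to 6.41) and 8.06% in WT-CTRL (7.59 to 8.56). With cells thinned to 1500 UMIs, after 708, 1004, 848 and 943 shallower cells were left out, the shares were 4.60%, 8.204%, 3.40% and 4.31% in KO-DOX, KO-CTRL, WT-DOX and WT-CTRL. No cell type in the sort is known to lack these genes, so no background share could be set beside them. A cell without such a UMI may still hold the transcript undetected. Free RNA in the droplets was not measured.

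All 40 genes were higher in cells with such UMIs than in cells without them, in each of the 4 libraries and with no overlap between the cell sets. The share of all genes without such overlap was not counted. Over UMIs summed by library and cell set, edgeR's quasi-likelihood test with the library as a block called all 40 higher, where 5.09% of all genes were called higher and 2.85% lower. Because the cells were chosen by genes of the same response, a rise of the 40 was built into the choice. The calls and p-values are therefore a description, and the sizes of the folds tell the genes apart. The largest Benjamini-Hochberg adjusted p of the 40 in edgeR was 4.47e-06, for Ifi208. The levels in this test are CPM with edgeR's TMM scaling. The libraries differ by genotype and treatment, so the spread in the test includes those differences, and its p-values measure how the difference between cell sets varies over 4 libraries. Cells with such UMIs were deeper, with medians of 3401 to 3528.5 UMIs against 3006.5 to 3090 in cells without. With all cells thinned to 1500 UMIs the count was again 40. The cell sets were those chosen before thinning, so this setting cannot undo the part of depth in the choice.

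Oasl2 rose most, 5.77-fold: it held 35.2 CPM in KO-DOX, 60.0 in KO-CTRL, 25.1 in WT-DOX and 31.0 in WT-CTRL cells with such UMIs, against 6.72, 6.90, 5.12 and 7.40 CPM in cells without them from the same libraries. Its log2 fold was 2.53 with an SE of 0.15 (edgeR adjusted p = 4.67e-08, higher in 4 of 4 libraries). Oas2 followed with 18.0 ± 4.42 CPM in cells with and 3.47 ± 0.457 CPM in cells without such UMIs (SD, n = 4 libraries), Dhx58 with 21.6 ± 5.36 and 4.60 ± 0.615 CPM, Rtp4 with 137 ± 27.3 and 32.2 ± 6.15 CPM, and Slfn5 with 204 ± 71.2 and 53.4 ± 2.95 CPM. Rtp4 thus rose 4.27-fold and Slfn5 3.80-fold.

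At the other end, Slfn2 was only 1.24-fold higher, at 358 ± 16.7 CPM in cells with and 288 ± 7.95 CPM in cells without such UMIs (edgeR adjusted p = 3.70e-06, SD, n = 4 libraries, higher in 4 of 4). Sp100 was 1.501-fold higher, Irf9 1.55-fold, Ifi208 1.65-fold and Epsti1 1.66-fold. Ifi27l2a, at 944 ± 190 CPM in cells with and 492 ± 69.3 CPM in cells without, was 1.91-fold higher. Ifi35 was 1.86-fold higher, and the remaining 28 genes lay between Ifi27l2a and Slfn5. The median log2 fold over the 40 was 1.30, and -0.0046 over all genes tested. Of the genes with a promoter window, the 17 with the core letters of the response element had a median of 1.30 and the 16 without, Oasl2 among them, a median of 1.21.

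**Figure D2:**
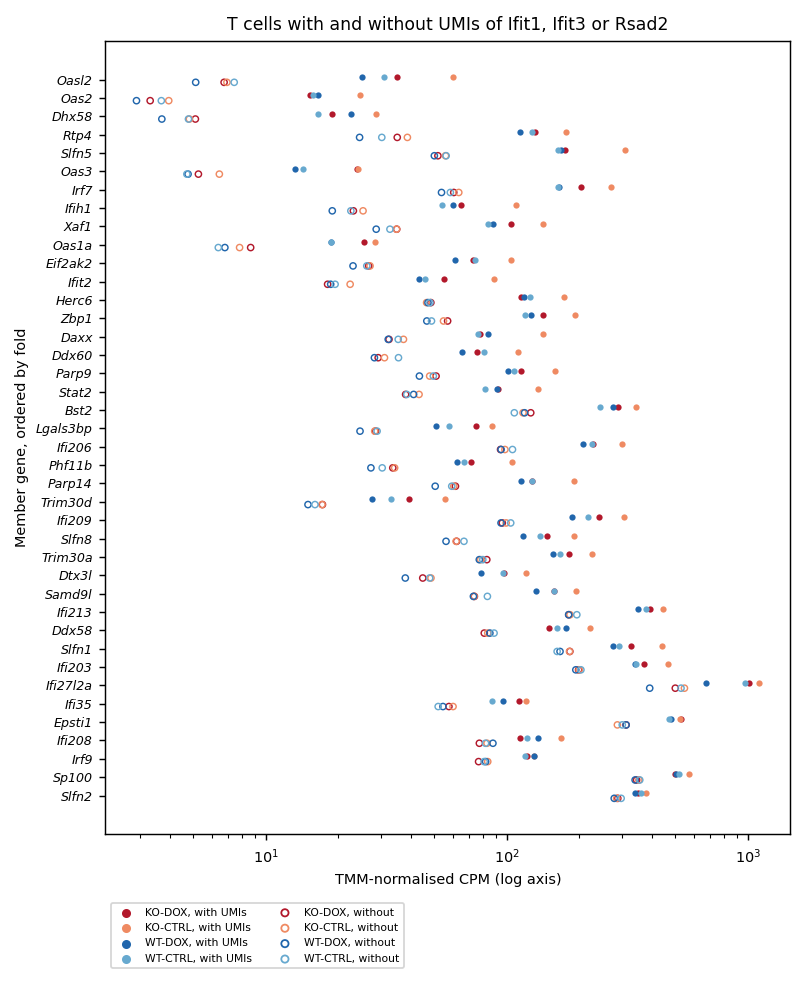
TMM-normalised CPM (log axis) of each of the 40 genes in T cells with UMIs of Ifit1, Ifit3 or Rsad2 (filled points) and without them (open points), 1 point per library, with genes ordered by fold. The filled points lie right of the open points of the same gene for all 40 genes, from 5.77-fold for Oasl2 at the top to 1.24-fold for Slfn2 at the bottom.

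KO-CTRL stood apart from WT-CTRL and KO-DOX in the cells with such UMIs. Among them 32 of 40 genes were higher in KO-CTRL than in WT-CTRL by more than 0.32, where 6.93% of all genes were, with a median of 0.48. KO-DOX against KO-CTRL gave 25 of 40 lower there, where 7.41% of all genes were, with a median of -0.42. Ifih1 held 63.7 CPM in KO-DOX, 107 in KO-CTRL, 59.0 in WT-DOX and 53.1 in WT-CTRL cells with such UMIs. Slfn5 held 172, 304, 165 and 161 CPM, and Daxx 76.4, 139, 82.6 and 75.3 CPM, in the same libraries. KO-CTRL alone was high for all 3.

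Between the other libraries fewer genes passed the limit in the same cells: 10 of 40 genes were higher in KO-DOX than in WT-DOX, where 11% of all genes were, and 1 of 40 was lower in WT-DOX than in WT-CTRL, where 10.8% of all genes were. That gene was Ifi27l2a, at 662 CPM in WT-DOX and 965 CPM in WT-CTRL. The count of 1 was 2 or 3 under several settings and 8 with thinned cells, and 8 of the 40 ratios had a counting interval below 1. In cells without such UMIs, which held more UMIs in all, 24 of 38 ratios had one. The share of all genes with such an interval was not counted. The count of 10 was 6 with the gates at the same proportions. In KO-DOX the cells with such UMIs also held 57.4 CPM of H2-Aa, a class II gene of antigen-presenting cells, against 1.55, 2.82 and 1.42 CPM in those of KO-CTRL, WT-DOX and WT-CTRL. Of the other 5 dendritic cell markers, Flt3 and Zbtb46 held 0.865 CPM each there and Xcr1, Clec9a and Siglech were at 0. The part of this in the levels of the 40 genes was not tested.

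In cells without UMIs of the 3 genes, 38 of the 40 were counted, Dhx58 and Oas2 falling short. KO-CTRL against WT-CTRL had a median of 0.020 and 2 genes higher, Oas3 and Rtp4, where 1.24% of all genes were. KO-DOX against KO-CTRL had a median of -0.022 and 0 genes lower, where 0.786% of all genes were. The comparisons with WT-DOX changed less with the cell set: WT-DOX against WT-CTRL had a median of -0.14 with 4 genes lower, where 3.57% of all genes were, and KO-DOX against WT-DOX a median of 0.12 with 4 higher, where 4.34% of all genes were. With thinned cells these counts were 7 lower and 9 higher, and the count of higher genes was 7 with each cell weighted alike and 8 without the 2% deepest barcodes. The count of 0 in KO-DOX against KO-CTRL was 1 under each of these settings. The 4 genes lower in WT-DOX than in WT-CTRL were Oasl2 at -0.47, Ifi27l2a at -0.45, Dtx3l at -0.35 and Ddx60 at -0.34. Tonic Ifi27l2a held 504 CPM in KO-DOX, 548 in KO-CTRL, 388 in WT-DOX and 532 in WT-CTRL. Tonic Rtp4 held 35.4, 38.8, 24.3 and 30.5 CPM in those libraries.

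**Figure D3:**
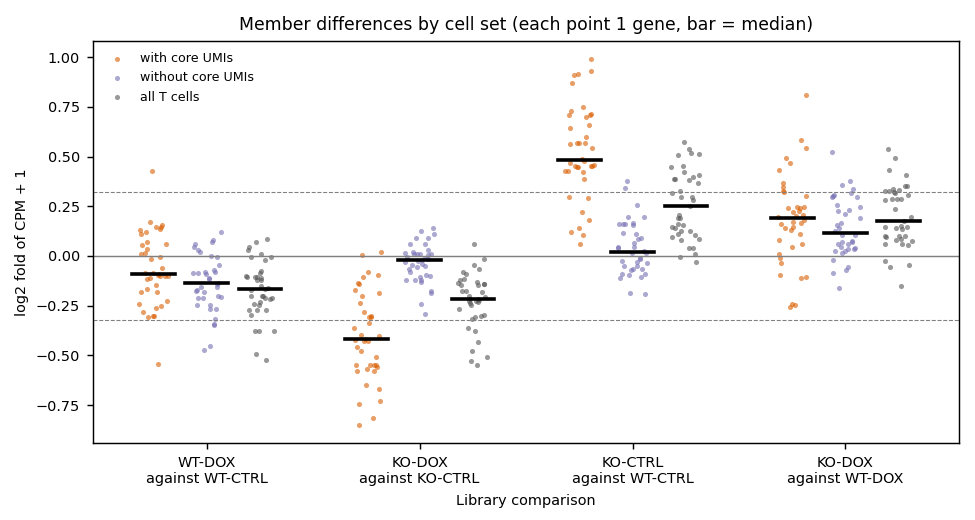
Log2 fold of CPM + 1 for each counted gene (points) and their median (bars) in 4 library comparisons, for T cells with UMIs of Ifit1, Ifit3 or Rsad2, without them, and all T cells, with dashed lines at 0.32 either side of 0. In KO-CTRL against WT-CTRL the median is 0.48 in cells with such UMIs and 0.020 in cells without, whereas in WT-DOX against WT-CTRL it is -0.089 with and -0.14 without.

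The UMIs of the 40 genes can be counted by the cells they came from. Cells with UMIs of Ifit1, Ifit3 or Rsad2 held 17.0% of them in KO-DOX, 28.4% in KO-CTRL, 11.9% in WT-DOX and 15.99% in WT-CTRL. By gene the share in KO-CTRL ran from 17.5% for Slfn2 to 58.2% for Oasl2, and in WT-DOX from 8.03% to 30.4%. KO-CTRL exceeded WT-CTRL by 447.5 CPM over all T cells. The part from these cells was 611.7 CPM higher. The remaining cells were fewer, 10868 in KO-CTRL and 11241 in WT-CTRL, and within them the 40 genes held 3633 CPM in KO-CTRL and 3625 CPM in WT-CTRL. The CD8 and CD4 gates, given below, differed there in direction. KO-DOX minus KO-CTRL was -449.0 CPM, and the part from cells with such UMIs -571.0 CPM. WT-DOX minus WT-CTRL was -425.1 CPM, of which these cells made up 49.2%. Ifi27l2a alone gave -165.5 CPM of that difference, with 27.6% of it in these cells.

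Counted cell by cell at 1500 UMIs, with Ifi27l2a set aside, the median T cell showed 4 of the other 39 genes in every library. The upper tail differed: 10 or more of the 39 were seen in 4.57% of cells in KO-DOX, 7.08% in KO-CTRL, 2.74% in WT-DOX and 3.89% in WT-CTRL. No gene at all was seen in 2.14%, 2.04%, 2.60% and 2.21% of cells of these libraries. Without the 5% of cells that held most of these UMIs, the mean per cell was 4.83 UMIs in KO-DOX, 5.14 in KO-CTRL, 4.33 in WT-DOX and 4.72 in WT-CTRL, which keeps WT-DOX lowest and KO-CTRL highest.

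**Figure D4:**
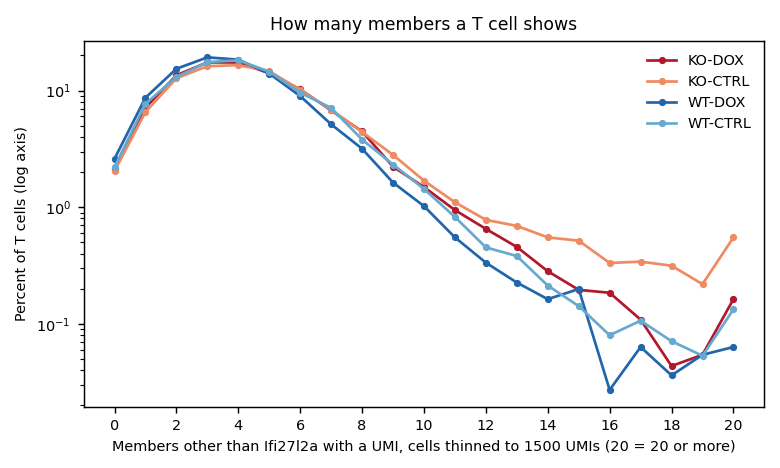
Percent of T cells (log axis) against the number of the 39 genes other than Ifi27l2a with a UMI in a cell thinned to 1500 UMIs, for each library, with 20 standing for 20 or more. WT-DOX has the highest percent at 1 to 4 genes, the lines lie close at 5 genes, and KO-CTRL is highest from 9 genes up, with cells of 10 or more making up 7.08% in KO-CTRL and 2.74% in WT-DOX.

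Levels were also read in cells gated by transcripts. The CD8 gate (Cd8a or Cd8b1, no Cd4 or Foxp3) held 4681 to 5922 cells per library, the Foxp3 gate (Foxp3, no Cd8a or Cd8b1) 166 to 226 cells and the CD4 gate (Cd4, no Cd8a, Cd8b1 or Foxp3) 1646 to 2291 cells. Another 34.5% to 35.3% of T cells fell in no gate, with medians of 2503 to 2582 UMIs. The regulatory T cell markers Il2ra, Ctla4 and Ikzf2 held 415 to 549, 786 to 968 and 899 to 1063 CPM in the Foxp3 gate. In the CD4 gate they held 25.01 to 44.1, 172 to 293 and 125 to 159.9 CPM. Between libraries, KO-CTRL exceeded WT-CTRL within each gate, with medians of 0.20 in CD8, 0.14 in Foxp3 and 0.18 in CD4 cells. The medians of KO-DOX against KO-CTRL were -0.24, -0.27 and -0.14 in CD8, Foxp3 and CD4 cells, and those of WT-DOX against WT-CTRL -0.19, -0.054 and -0.12. With doxorubicin in both genotypes, KO-DOX against WT-DOX had medians of 0.12 in CD8 and 0.14 in CD4 cells but -0.15 in Foxp3 cells, over 35 counted genes in 166 and 170 cells. In CD8 cells without UMIs of Ifit1, Ifit3 and Rsad2, the 40 genes held 3522 CPM in KO-CTRL and 3652 CPM in WT-CTRL. They held 3873 and 3751 CPM in such Foxp3 cells and 3767 and 3674 CPM in such CD4 cells. The counting intervals of KO-CTRL and WT-CTRL overlapped only in Foxp3 cells. With Ifi27l2a set aside they also overlapped in CD4 cells.

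All 40 genes were tested between CD8 and CD4 cells, and their levels differed in both directions. Median depth was 3406 to 3492.5 UMIs in CD8 cells and 2958.5 to 3161 in CD4 cells. With cells thinned to 1500 UMIs, 21 genes were called higher in CD8 cells and 6 lower. Across 4 libraries, with the library as a block, edgeR's quasi-likelihood test called 22 of the 40 higher in CD8 cells and 7 lower, where 25.6% of all genes were called higher and 24.8% lower. Scaled by total UMIs without TMM, which moved the median of all genes to -0.15, the split was 17 higher and 11 lower. Irf9 and Ifi35 turned from higher to -0.0055 and -0.019 under that scaling, and directions below are for TMM scaling.

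Epsti1, level between the libraries, differed most between the gates: it held 498 CPM in KO-DOX, 505 in KO-CTRL, 487 in WT-DOX and 498 in WT-CTRL CD8 cells, against 137, 133, 121 and 127 CPM in CD4 cells of these libraries. It was 3.84-fold higher in CD8 cells (log2 1.94, SE 0.035, edgeR adjusted p = 8.88e-16, 4 of 4 libraries). Among the 5 genes highest by fold were also the PYHIN genes Ifi213, with 255 ± 15.9 CPM in CD8 and 143 ± 8.53 CPM in CD4 cells, and Ifi206, with 133 ± 13.7 and 84.02 ± 6.203 CPM (SD, n = 4 libraries). Bst2 held 159 ± 16.5 CPM in CD8 and 99.4 ± 6.26 CPM in CD4 cells. Oas3 held 8.76 ± 2.54 and 5.61 ± 2.41 CPM and was higher in 3 of 4 libraries, with the gates overlapping. In all, Ifi203, Ifi206, Ifi208, Ifi209 and Ifi213 were each called higher in CD8 cells, by log2 folds of 0.26 to 0.83.

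The genes lower in CD8 cells were led by Ifi27l2a, at 397, 453, 322 and 440 CPM in CD8 cells of KO-DOX, KO-CTRL, WT-DOX and WT-CTRL, against 853, 909, 674 and 850 CPM in CD4 cells. Its log2 fold was -1.03 with an SE of 0.031 (edgeR adjusted p = 5.02e-13, lower in 4 of 4 libraries). Ifih1 held 22.3 ± 6.42 CPM in CD8 and 38.8 ± 5.27 CPM in CD4 cells (SD, n = 4 libraries), Slfn5 56.5 ± 13.6 and 85.4 ± 7.201 CPM, Oas1a 7.497 ± 1.26 and 10.4 ± 2.24 CPM, and Ifit2 20.2 ± 3.98 and 27.1 ± 4.88 CPM. The log2 folds of Slfn2 and Slfn1 were -0.25 and -0.17, and Slfn1 turned to 0.10 with at least 2 UMIs of the gating transcript. The 11 not called were Phf11b, Oas2, Trim30d, Eif2ak2, Zbp1, Ddx60, Sp100, Daxx, Parp14, Dhx58 and Oasl2. Oas1a lost its call with cells thinned to 1500 UMIs, and Ifi35 and Oas3 lost theirs without KO-CTRL. Ifi35 also lost its call without WT-CTRL.

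Foxp3-positive cells differed from the other CD4 cells in both directions, as genes in general did between these gates. Of 39 genes tested, edgeR called 12 higher in Foxp3-positive cells and 14 lower, where 24.7% and 24.8% of all genes were. DESeq2 called 8 higher and 10 lower. The median log2 fold of the 39 was -0.096, against -0.031 over all genes tested. It turned to 0.14 with cells thinned to 1500 UMIs. Ifi208 held 7.40 CPM in KO-DOX, 16.05 in KO-CTRL, 10.7 in WT-DOX and 10.7 in WT-CTRL Foxp3-positive cells, against 69.6, 86.8, 87.6 and 78.3 CPM in CD4 cells. Its log2 fold was -2.81 with an SE of 0.14 (edgeR adjusted p = 1.11e-11, lower in 4 of 4 libraries). Slfn1 held 77.4 ± 13.6 CPM in Foxp3-positive and 226 ± 17.7 CPM in CD4 cells (SD, n = 4 libraries), Ifi213 53.6 ± 11.3 and 156 ± 9.43 CPM, Oasl2 4.92 ± 0.776 and 10.02 ± 2.68 CPM, and Ifi206 51.2 ± 6.18 and 91.7 ± 7.02 CPM. The other genes called lower were Irf7, Ddx60, Slfn5, Slfn2, Ddx58, Ifit2, Ifih1, Sp100 and Ifi203.

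Oas1a was the gene most above its CD4 level, with 30.4 CPM in KO-DOX, 25.7 in KO-CTRL, 35.5 in WT-DOX and 26.1 in WT-CTRL Foxp3-positive cells, against 12.2, 14.4, 9.73 and 9.08 CPM in CD4 cells. Its log2 fold was 1.35 with an SE of 0.18 (edgeR adjusted p = 5.24e-06, 4 of 4 libraries). Eif2ak2 held 66.3 ± 6.11 CPM in Foxp3-positive and 34.0 ± 5.04 CPM in CD4 cells (SD, n = 4 libraries), Phf11b 68.5 ± 11.9 and 41.3 ± 5.74 CPM, Ifi27l2a 1279 ± 165 and 896 ± 110 CPM, and Ifi209 150 ± 15.6 and 110 ± 10.04 CPM. Also called higher were Epsti1, Zbp1, Parp9, Parp14, Bst2, Trim30d and Dtx3l. The PYHIN genes thus did not move together: Ifi206, Ifi208, Ifi213 and Ifi203 were called lower in Foxp3-positive cells and Ifi209 higher, although Ifi203 turned to 0.15 with thinned cells. The promoter letters did not divide the genes with a promoter window by direction. Of those called higher, Oas1a, Eif2ak2, Phf11b, Bst2 and Trim30d hold them, and Ifi209, Epsti1 and Dtx3l lack them. Of those called lower, Ifi203, Ifi206, Ifi208, Ifi213, Ddx58, Ddx60, Ifih1 and Slfn5 hold them, and Irf7, Sp100, Oasl2, Ifit2, Slfn1 and Slfn2 lack them. The 13 not called were Oas3, Lgals3bp, Dhx58, Irf9, Daxx, Herc6, Rtp4, Slfn8, Stat2, Trim30a, Samd9l, Ifi35 and Xaf1.

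Few cells stand behind these values, and their median depth was 4031 to 4329 UMIs in Foxp3-positive cells against 2958.5 to 3161 in CD4 cells. With cells thinned to 1500 UMIs, 37 genes were tested, 10 were called higher and 4 lower, these being Ifi208, Ifi213, Slfn1 and Slfn2, while Ifih1 turned to 0.046 and Ifi206 kept its direction at -0.37 without a call. At least 2 UMIs of the gating transcript gave 7 higher and 13 lower. Calls for Ifi203, Ifih1, Ifit2, Parp9, Zbp1, Trim30d and Epsti1 were lost when 1 library or another was left out. In WT-CTRL the Foxp3 gate also held 36.7 CPM of dendritic cell markers, against 1.959 to 5.03 CPM in the other libraries, and Epcam, listed as an epithelial marker, stood at 24.2 to 43.0 CPM in the Foxp3 gate against 4.63 to 5.52 CPM in the CD4 gate, with Krt8 at 0 in both. Their part in these values was not tested.

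**Figure D5:**
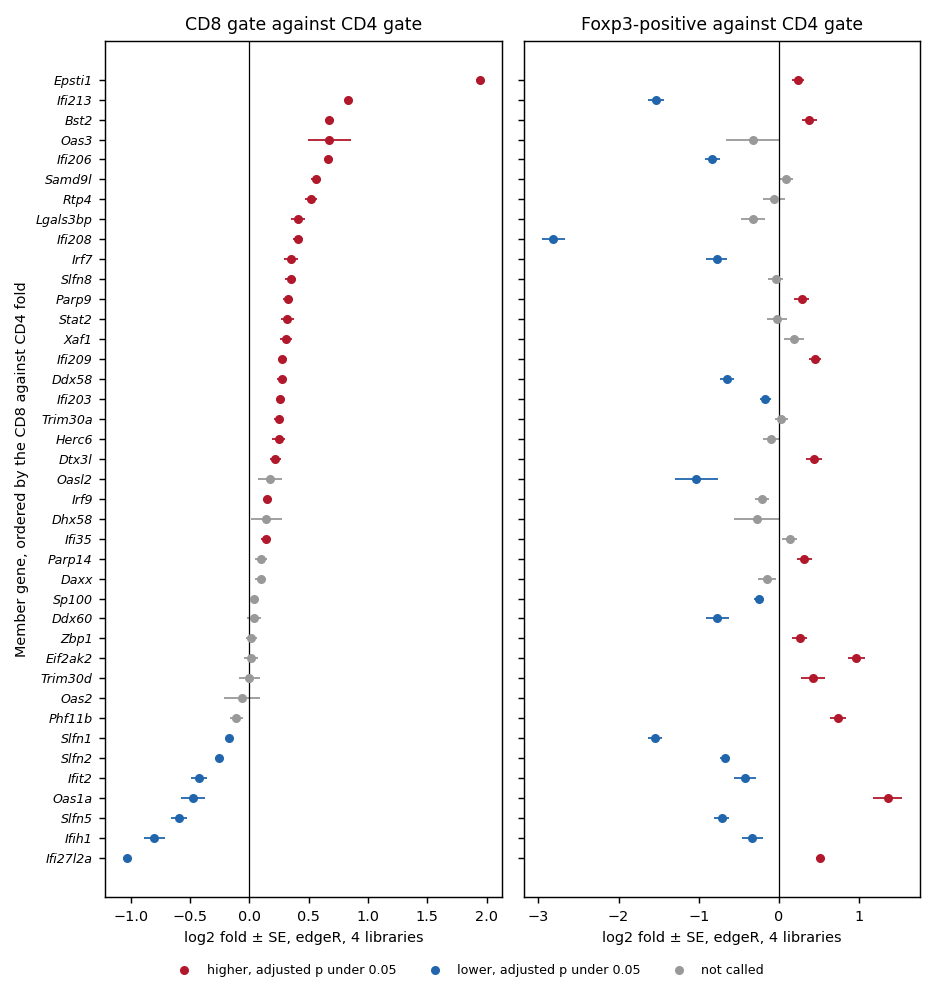
Log2 fold from edgeR over 4 libraries, ± an SE derived from the fold and its F statistic. Shown are CD8 against CD4 gate (left, 40 genes) and Foxp3-positive against CD4 gate (right, 39 genes, Oas2 not tested). Genes are in red where called higher, in blue where called lower and in grey where not called. Epsti1 stands at 1.94 at the top left, Ifi27l2a is lower in CD8 (-1.03) and higher in Foxp3-positive cells (0.51), and Ifi208 is higher in CD8 (0.41) and lowest in Foxp3-positive cells (-2.81).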

How the data were processed

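Single-cell libraries with 5' chemistry from sorted T cells were deposited by the authors as filtered matrices of raw UMI counts per gene and barcode, 1 library per group, per the file headers. The build was mm10, per the submitters' processing notes. The aligner, the cell caller, the strand setting and the counting of reads shared by related genes were not stated. The 40 genes and all lists used were chosen with earlier results of these data known.

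T cells were barcodes with at least 1 Cd3 UMI, at least 300 genes, at most 10% mitochondrial UMIs and fewer than 3 UMIs of markers of other types, which kept 46502 of 48597 barcodes. No doublet caller was run. The CD4 and CD8 gates left out cells with UMIs of both, and an alternative dropped the 2% of barcodes with most UMIs. Between libraries, a pseudocount of 1 CPM, a mean of at least 5 CPM, at least 100 UMIs and a log2 fold of 0.32 were used, with exact 95% intervals. Gates and cell sets were compared on summed UMIs with edgeR 4.0.16 in R 4.3.3 (TMM, quasi-likelihood, library as a block since both sets come from the same library), with Benjamini-Hochberg adjustment over all genes at 0.05. Each SE given with an edgeR fold is the absolute log2 fold divided by the square root of the test's F statistic. DESeq2 1.42.0 was an alternative. Scripts were tested on simulated data. Python 3.11.15 with numpy 2.4.6, scipy 1.17.1, pandas 2.3.3 and matplotlib 3.10.9 did the remaining work.

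All 40 genes are accounted for by role. The level of 1 gene of the signalling list is not reported here. Full values were given for the 2 genes of each role with most UMIs and for the 5 largest folds in each direction, and further genes were added beyond that rule after their values were seen. Coordinates and promoters are from RefSeq GRCm38.p6, and 7 genes had no promoter entry (Dhx58, Oas2, Parp9, Parp14, Ifi27l2a, Rtp4 and Zbp1).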

Additional observations from a re-analysis of the deposited data

How the results depend on the processing

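No paired analysis was possible between libraries because each group has 1 library. Over all T cells, KO-DOX against WT-DOX gave 6 genes higher with median-of-ratios scaling and 5 with the gates at the same proportions, and thinned cells gave 11 lower in KO-DOX against KO-CTRL and 8 lower in WT-DOX against WT-CTRL. In cells without UMIs of Ifit1, Ifit3 and Rsad2, KO-DOX against KO-CTRL gave 1 lower with each cell weighted alike, without the 2% deepest barcodes, with thinned cells or with 5 further genes at 0, where KO-CTRL against WT-CTRL also gave 1 higher. KO-DOX against WT-DOX gave 7 higher with equal weights, 8 without the deepest barcodes and 9 when thinned, and WT-DOX against WT-CTRL 7 lower when thinned. In cells with such UMIs, WT-DOX against WT-CTRL gave 3 lower with equal weights, at the same gate proportions or without barcodes shared between libraries, 2 with a stricter cell filter or without the deepest barcodes, and 8 when thinned. There it gave 0 higher without the deepest barcodes and 2 when thinned. KO-DOX against WT-DOX gave 6 higher at the same gate proportions and 1 lower when thinned. Thinned shares of cells with such UMIs were 4.60% in KO-DOX, 8.204% in KO-CTRL, 3.40% in WT-DOX and 4.31% in WT-CTRL.

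CD8 against CD4 gave 11 lower without TMM, where Irf9 (-0.0055) and Ifi35 (-0.019) reversed, and Slfn1 (0.10) reversed with at least 2 UMIs of the gating transcript. Foxp3-positive against CD4 gave 4 lower when thinned, where Ifih1 (0.046) and Ifi203 (0.15) reversed, and 7 higher with at least 2 UMIs. Without the replicate block, CD8 against CD4 gave 17 higher and 6 lower, Foxp3-positive against CD4 gave 10 higher and 11 lower, and all 40 stayed higher in cells with UMIs of the 3 genes. Leaving out 1 library gave 20 to 23 higher and 7 lower for CD8 and 9 to 12 higher and 11 to 13 lower for Foxp3-positive cells. Of the values for whole comparisons, 438 stayed within the tolerance set for a move and 30 passed it. Values within that tolerance did not all keep their size. Without TMM, CD8 against CD4 gave 17 higher, where the main setting gave 22. With DESeq2, Foxp3-positive against CD4 gave 10 lower, where the main setting gave 14. The settings without TMM and without shared barcodes, and those for cells with such UMIs, were added after the data were seen. The causes were not tested.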
